A study of Mus musculus with 6 samples.

Results

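The genes described here are the cadherins, the non-clustered protocadherins and the catenins that bind classical cadherins, measured in adipocytes of mouse subcutaneous white adipose tissue (scWAT). They were chosen by symbol alone: every row of the count table named as a numbered cadherin, a numbered protocadherin, *Fat1* to *Fat4*, *Dchs1* or *Dchs2*, *Celsr1* to *Celsr3*, *Ctnna1*, *Ctnna2*, *Ctnnd1* or *Ctnnd2*, leaving out *Cdh5* and *Cdh19*, which serve here as markers of endothelial and Schwann cells. That rule found 45 of the 37384 genes in the table, and *Dchs2* is not analysed here. RNA was sequenced from floated adipocytes of the inguinal depot of male mice at postnatal day 7, with 3 libraries per genotype, L1L2-FF and L1L2-AKO, and with the adipocytes of 4 mice pooled for each library. All mice carried floxed alleles of *Lats1* and *Lats2*, the kinases at the end of the Hippo cascade. L1L2-AKO mice also carried AdipoqCre, a Cre recombinase driven by the *Adipoq* promoter and therefore active in adipocytes, and L1L2-FF mice carried no Cre. The comparison asks how transcripts of these adhesion molecules differ when adipocytes carry this Cre.

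Cadherins are membrane proteins that hold neighboring cells together through calcium-dependent contacts between their extracellular repeats. The cytoplasmic tail of a classical cadherin binds delta-catenin (p120) near the membrane and, through beta-catenin, the actin-linked alpha-catenin. Non-clustered protocadherins have more extracellular repeats and other tails, and are best known from the nervous system and the vascular wall. Fat and Dachsous cadherins are giant proteins that bind each other across cell borders, and in flies Fat acts upstream of the Hippo pathway. Celsr proteins cross the membrane as adhesion G-protein-coupled receptors do, and take part in planar cell polarity.

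Total counts were between 30548473 and 32107917 per library, and these genes took 0.102% to 0.148% of them. *Lats1* fell from 82.9 ± 9.90 to 40.2 ± 1.16 CPM (counts per 1000000 counts of a library, scaled with TMM factors, mean ± SD, n = 3), with an adjusted p of 0.00131 in edgeR's quasi-likelihood test. *Lats2* went against the label: it rose from 76.4 ± 8.68 to 119 ± 20.6 CPM, with an adjusted p of 0.0278 in edgeR. Counts over a whole gene do not show which exons were read, so these counts are no measure of the deletion. In a separate measurement, the paper reported less mRNA of both genes in adipocytes of L1L2-AKO scWAT at this age. The libraries are called by their label throughout. Every direction given below is therefore that of the libraries labelled L1L2-AKO (AKO-labelled) against those labelled L1L2-FF. Adipocyte markers were abundant in every library, with summed levels from 13628 to 16554 CPM in L1L2-FF and from 10325 to 12463 CPM in the AKO-labelled libraries, where 3 of the 8 were lower. Markers of other cells were also counted, and the sums of 4 of those lists did not overlap between the labels. All 8 macrophage markers were higher (sums 226 to 449 CPM against 847 to 943 CPM), 4 of 7 Schwann cell markers were lower (469 to 1210 CPM against 150 to 378 CPM), and 2 of 6 mural cell markers were lower and 1 higher (895 to 1182 CPM against 550 to 819 CPM). Skeletal muscle markers summed to 43.3 to 44.8 CPM against 22.6 to 27.7 CPM, with none of the 5 tested past the threshold. Endothelial sums overlapped, from 1852 to 2505 CPM in L1L2-FF and from 1083 to 2348 CPM in the AKO-labelled libraries, with 1 of 8 markers lower. In such bulk libraries, fewer cells of a type and less RNA per cell cannot be told apart, and the part of any of these cells in the results was not tested unless a value is given beside them.

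Of the 45 genes, 31 had enough counts to be tested and 14 did not. With p-values from edgeR adjusted by Benjamini-Hochberg over all 15674 genes tested, 7 of the 31 passed the threshold of 0.05, or 22.6%, beside a background of 16.5% over all genes tested. *Cdh8*, *Pcdh7*, *Fat1* and *Fat3* were higher in the AKO-labelled libraries (4 genes, 12.9%, beside 9.28% of all genes), and *Celsr2*, *Pcdh18* and *Pcdh20* were lower (3 genes, 9.68%, beside 7.18% of all genes). The labels did not overlap for 12 of the 31 genes, or 38.7%, beside 36.4% of all genes. The median log2 fold change was 0.01 over the 31 genes and -0.02 over all genes tested. In counts and median the family was close to the rest of the table. Of the 31 tested genes, 9 had fewer than 3 libraries of one label above the filter's level, among them *Cdh8*, so that these counts do not describe all 45.

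**Figure D1:**
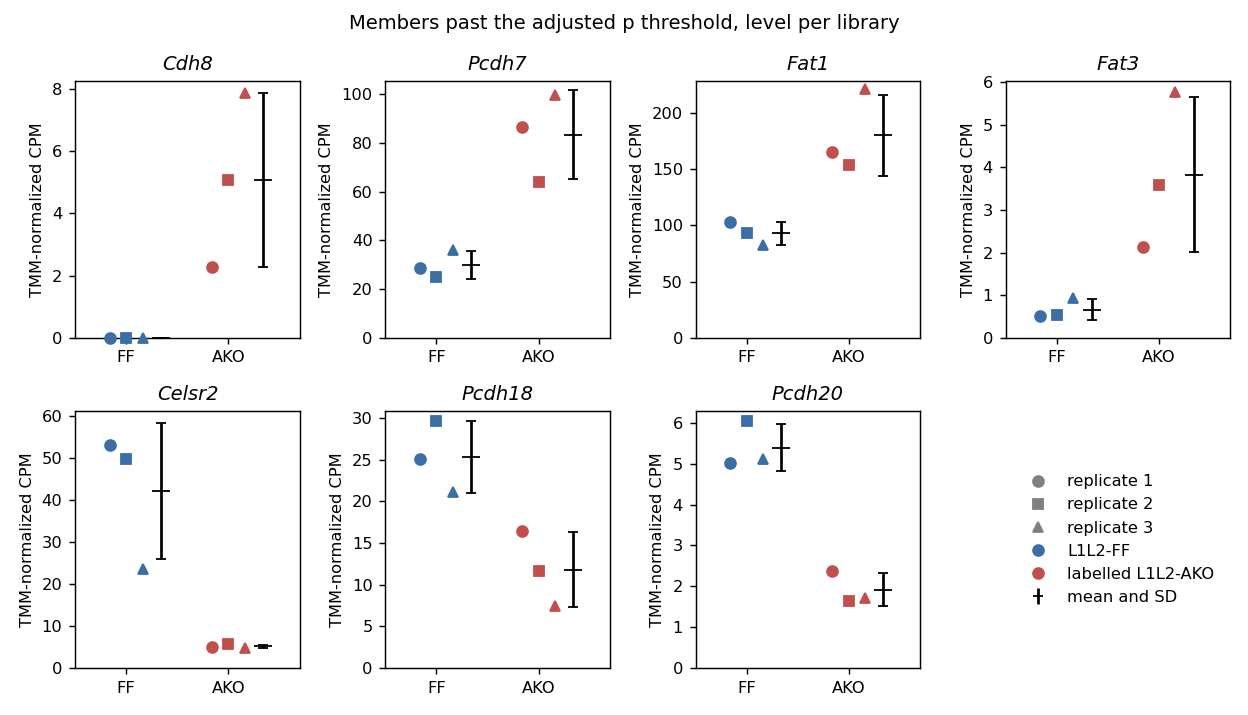
Level of the 7 genes past the adjusted p threshold in each library, in TMM-normalized CPM, with the mean and SD of 3 libraries beside the points. The labels do not overlap in any panel, and *Cdh8* lies at 0 in all 3 L1L2-FF libraries.

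**Figure D2:**
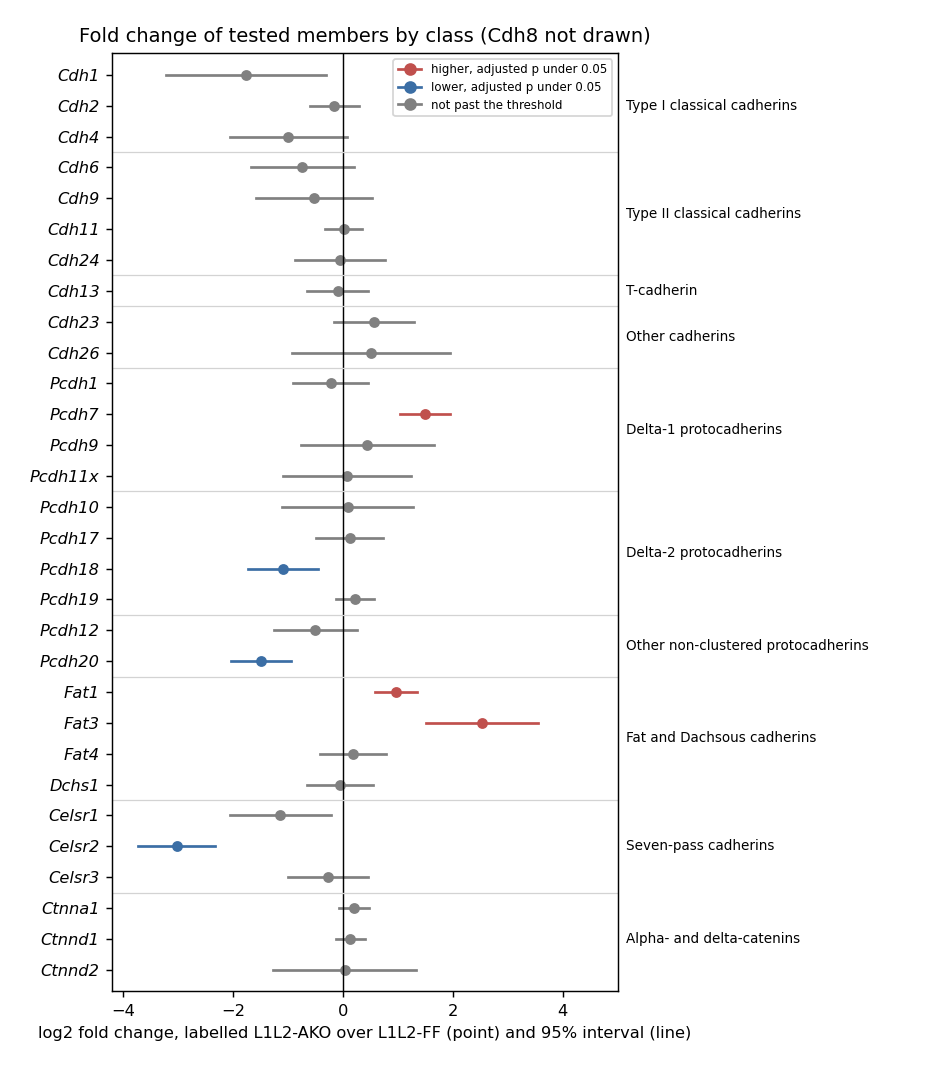
Fold change on the log2 scale with its 95% interval for the tested genes, grouped by class, from edgeR's quasi-likelihood fit. *Cdh8* is not drawn because all its L1L2-FF libraries hold 0 counts, and the longest distances from 0 among the called genes are those of *Celsr2* (-3.03) and *Fat3* (2.53).

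The classical cadherins are divided into type I, which includes E-cadherin and N-cadherin, and type II. Beside 16.5% of all genes tested, none of the 3 tested type I genes and 1 of the 5 tested type II genes passed the threshold. That gene was *Cdh8*, a type II cadherin known mainly from the developing brain, on the reverse strand of chromosome 8 (mm10, chr8:99024471-99416471). No read was assigned to it in L1L2-FF (0 counts in each of 3 libraries), against counts of 75, 160 and 225 under the other label. Its level was thus 2.26, 5.08 and 7.86 CPM there (5.06 ± 2.80, SD, n = 3), at least 53.3-fold higher than the floor of 3 counts per library allows in L1L2-FF. The adjusted p was 0.00243 by edgeR's quasi-likelihood test, and because the gene passed the filter through one label only, its inclusion depended on that difference. An overlapping gene, *Gm15679*, shares 23 of its exonic bases and had at most 1 count in any library. None of the other 4 tested type II genes passed. *Cdh11*, the osteoblast cadherin of mesenchymal cells, had 18.4, 16.9 and 14.9 CPM in L1L2-FF and 19.2, 15.9 and 15.8 CPM in the AKO-labelled libraries, a log2 difference of 0.01 with a 95% interval from -0.32 to 0.35. *Cdh8* took 8.86%, 22.2% and 30.3% of the per-kilobase level of type II cadherins in those libraries, and 0% in the others, while *Cdh11* took 71.4% ± 2.37 in L1L2-FF and 59.5% ± 6.27 in the AKO-labelled libraries. *Cdh6*, *Cdh9* and *Cdh24* were low, between 0.190 and 2.35 CPM in every library, with overlapping libraries and log2 differences of -0.74, -0.53 and -0.06.

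The 300 bases around the transcription start of *Cdh8* are shown because the gene was counted under one label only. They come from RefSeq on GRCm38.p6, lie at chr8:99416422-99416721 on the reverse strand, and end 50 bases after the start. Neither CATTCC or its reverse complement GGAATG, the core bound by TEAD factors, the DNA-binding partners of the Hippo effectors YAP and TAZ, nor CACCTG or its reverse complement CAGGTG, the E-box core bound by the cadherin repressors of the Snail and Zeb families, occurs in this window, so no letter is in capitals.

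Cdh8: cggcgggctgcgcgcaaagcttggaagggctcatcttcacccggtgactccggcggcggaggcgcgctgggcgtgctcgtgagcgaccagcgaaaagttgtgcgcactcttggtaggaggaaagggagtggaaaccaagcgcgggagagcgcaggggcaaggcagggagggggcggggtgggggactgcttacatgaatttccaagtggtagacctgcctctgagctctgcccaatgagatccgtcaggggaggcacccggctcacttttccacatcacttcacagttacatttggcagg

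Among type I genes, *Cdh2* (N-cadherin, the classical cadherin of mesenchymal cells) had the highest level. It had 18.4, 15.7 and 12.7 CPM in L1L2-FF and 11.4, 16.2 and 14.3 CPM in the AKO-labelled libraries, which overlapped, with a log2 difference of -0.16 (95% interval -0.60 to 0.28). *Cdh1*, the E-cadherin of epithelia, had 43, 155 and 64 counts in L1L2-FF and 8, 37 and 29 counts in the AKO-labelled libraries. Those are 2.74 ± 1.81 and 0.809 ± 0.498 CPM, without overlap, and the difference of -1.77 on the log2 scale missed the threshold with an adjusted p of 0.0977 in edgeR. Taken as a percentage of the summed Schwann cell markers, *Cdh1* was 0.320% ± 0.0671 and 0.293% ± 0.124, so the ratios overlapped whereas the levels of *Cdh1* did not. Epithelial markers were scarce, with summed levels of 5.07 to 11.4 CPM. DESeq2's Wald test called *Cdh1* lower with an adjusted p of 0.0259, and over all alternatives the adjusted p lay between 0.0238 and 0.253. The repressors of classical cadherins in epithelial-mesenchymal transition, *Snai1*, *Snai2*, *Zeb1*, *Zeb2*, *Twist1* and *Twist2*, were all tested. None of these 6 passed the threshold, which 16.5% of all genes tested did. The most abundant of them, *Zeb2*, differed by 0.09 on the log2 scale with an adjusted p of 0.770.

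*Cdh13*, or T-cadherin, is anchored to the membrane by a lipid, lacks the catenin-binding tail and binds adiponectin, the protein encoded by *Adipoq*. It was among the most abundant of these genes, at 124, 107 and 89.4 CPM in L1L2-FF and 129, 105 and 65.2 CPM in the AKO-labelled libraries. The libraries overlapped and the log2 difference was -0.10 with a 95% interval from -0.65 to 0.45. *Adipoq* itself was lower, at 2108 ± 349 CPM in L1L2-FF and 878 ± 171 CPM in the AKO-labelled libraries.

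The delta-1 protocadherins are *Pcdh1*, *Pcdh7*, *Pcdh9* and *Pcdh11x*, all tested. *Pcdh7*, a cell-surface protein best known from the nervous system, was the 1 that changed. It lies on the forward strand of chromosome 5 (chr5:57717967-58133230) and had 28.5, 24.7 and 36.0 CPM in L1L2-FF and 86.7, 64.0 and 99.7 CPM in the AKO-labelled libraries. The lowest of the latter was above the highest of the former, and the mean rose from 29.8 ± 5.75 to 83.5 ± 18.1 CPM, 2.80-fold. Its log2 fold change was 1.49 ± 0.200 (SE) with an adjusted p of 0.00251 by edgeR's quasi-likelihood test. An antisense gene, *4932441J04Rik*, overlaps 21.1% of the exonic bases of *Pcdh7*, and it had at most 12 counts in a library. *Pcdh1*, which is found in epithelia and endothelium, had 105 ± 22.3 and 89.4 ± 37.5 CPM with overlapping libraries. The share of *Pcdh7* in the per-kilobase level of the class was 19.3% ± 4.72 in L1L2-FF and 44.6% ± 13.8 in the AKO-labelled libraries, and that of *Pcdh1* was 80.0% ± 4.69 and 54.7% ± 13.6. *Pcdh9* and *Pcdh11x* were low, at 1.08 CPM or less in every library.

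The window of *Pcdh7* is shown because it holds an E-box core. It is RefSeq sequence of GRCm38.p6 at chr5:57717831-57718130 on the forward strand, its start lies 114 bases downstream of the gene's first base in GENCODE M21, and CAGGTG, in capitals, lies at position 33 after the start.

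Pcdh7: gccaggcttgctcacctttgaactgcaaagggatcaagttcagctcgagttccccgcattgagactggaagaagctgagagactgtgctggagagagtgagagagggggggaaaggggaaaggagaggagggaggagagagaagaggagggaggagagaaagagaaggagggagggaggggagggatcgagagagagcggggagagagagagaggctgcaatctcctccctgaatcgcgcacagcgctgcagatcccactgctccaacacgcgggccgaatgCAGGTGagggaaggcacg

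Delta-2 protocadherins can recruit the actin regulators of the WAVE complex through their tails. Of the 4 tested, *Pcdh18* (chr3:49743296-49757325, reverse strand) was lower, at 25.2, 29.7 and 21.1 CPM in L1L2-FF and 16.4, 11.6 and 7.40 CPM in the AKO-labelled libraries. The means were 25.3 ± 4.31 and 11.8 ± 4.51 CPM, 2.14-fold lower, and the libraries did not overlap. The adjusted p was 0.0309 in edgeR, and it was over 0.05 when L1L2-FF replicate 1, L1L2-FF replicate 2, L1L2-AKO replicate 2 or L1L2-AKO replicate 3 was left out (0.0970, 0.0595, 0.107 and 0.0633), with log2 differences from -1.41 to -0.85 over the 6 fits that leave out a library. Summed mural cell markers were lower in the same libraries, and *Pcdh18* was 2.35% ± 0.225 of that sum in L1L2-FF and 1.64% ± 0.334 in the AKO-labelled libraries. Against the summed progenitor and fibroblast markers it was 3.29% ± 0.309 and 1.81% ± 0.641, and neither ratio overlapped between the labels. *Pcdh17* and *Pcdh19*, its close relatives, did not pass: *Pcdh17* had 39.2 ± 5.20 and 42.7 ± 16.3 CPM, and *Pcdh19* had 36.8 ± 5.68 and 42.6 ± 5.21 CPM. The share of *Pcdh18* in the class per kilobase was 41.7% ± 1.60 in L1L2-FF and 22.4% ± 3.52 in the AKO-labelled libraries. There *Pcdh19* had the highest mean share, 43.7% ± 8.43, but in L1L2-AKO replicate 1 *Pcdh17* led with 38.6% against 34.7%. *Pcdh10* stayed under 1 CPM throughout, and *Pcdh8* had too few counts.

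Among the remaining non-clustered protocadherins, *Pcdh20* was lower (chr14:88464743-88471396, reverse strand). It had 5.01, 6.06 and 5.12 CPM in L1L2-FF and 2.38, 1.65 and 1.71 CPM in the AKO-labelled libraries, from 49 to 196 counts. The mean fell from 5.40 ± 0.576 to 1.91 ± 0.407 CPM, 2.81-fold lower, with a log2 fold change of -1.49 ± 0.235 (SE) and an adjusted p of 0.00493 in edgeR. The summed Schwann cell markers were lower in the same libraries. As a percentage of that sum, *Pcdh20* was 1.07%, 0.501% and 0.672% in L1L2-FF (0.747% ± 0.291). In the AKO-labelled libraries it was 1.59%, 0.437% and 0.689% (0.904% ± 0.604), with overlap. Within L1L2-FF the sum ranged from 469 to 1210 CPM, whereas *Pcdh20* lay between 5.01 and 6.06 CPM. Why the ratios overlapped, and which cells carried *Pcdh20*, was not tested. *Pcdh12*, the vascular endothelial protocadherin, had 52.3, 45.6 and 42.4 CPM in L1L2-FF and 49.6, 32.4 and 16.9 CPM in the AKO-labelled libraries, with overlap and an adjusted p of 0.349. It made up 2.09%, 1.98% and 2.29% of the summed endothelial markers in L1L2-FF and 2.11%, 1.73% and 1.56% in the AKO-labelled libraries. The percentages overlapped between the labels, but those of L1L2-AKO replicates 2 and 3 were below every L1L2-FF library.

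**Figure D3:**
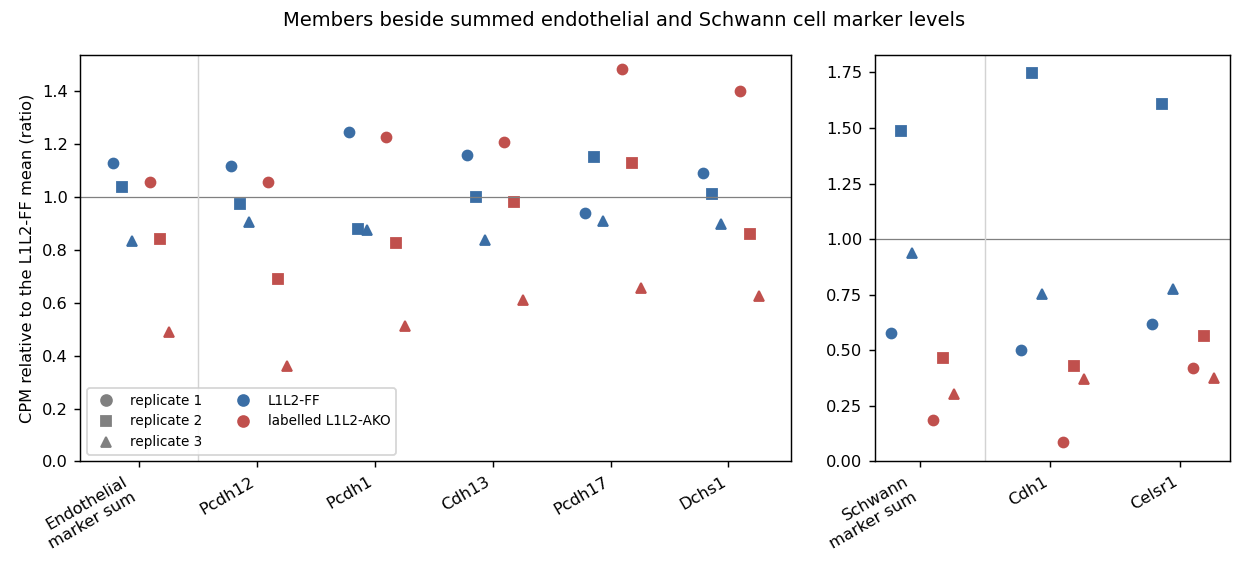
Level of 7 genes in each library relative to the L1L2-FF mean, beside the summed endothelial markers (left) and the summed Schwann cell markers (right), as a ratio. L1L2-AKO replicate 3 has the lowest endothelial sum (0.488 of the L1L2-FF mean) and the lowest *Pcdh12* (0.361), and L1L2-FF replicate 2 has the highest Schwann cell sum (1.49) and the highest *Cdh1* (1.75).

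The library with the lowest endothelial sum, L1L2-AKO replicate 3, was also lowest for *Pcdh1*, *Cdh13*, *Pcdh17* and *Dchs1*. However, L1L2-AKO replicate 1 was highest for *Cdh13*, *Pcdh17* and *Dchs1*, whereas the endothelial sum was highest in L1L2-FF replicate 1. As a percentage of the endothelial sum, *Pcdh1* was 4.71% ± 0.635 in L1L2-FF and 5.01% ± 0.426 in the AKO-labelled libraries, *Pcdh17* was 1.79% ± 0.273 and 2.41% ± 0.0598, and *Cdh13* was 4.81% ± 0.152 and 5.71% ± 0.280. *Dchs1* was 1.64% ± 0.0968 of that sum in L1L2-FF and 1.97% ± 0.268 in the AKO-labelled libraries. The ratios of *Cdh13* and *Pcdh17* were higher in all 3 AKO-labelled libraries than in any L1L2-FF library, and those of *Pcdh1* and *Dchs1* overlapped. The ratio is a description, and which cells carried these transcripts was not tested.

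In the Fat and Dachsous class 2 of 4 tested genes rose, beside 9.28% of all genes tested. *Fat1* (chr8:44935447-45052257, forward strand), the broadly expressed member, which regulates actin at cell borders, had 103, 93.0 and 82.4 CPM in L1L2-FF and 165, 154 and 222 CPM in the AKO-labelled libraries. The mean rose from 92.8 ± 10.3 to 180 ± 36.3 CPM, 1.94-fold, without overlap, with a log2 fold change of 0.96 ± 0.166 (SE) and an adjusted p of 0.00735 in edgeR. *Fat3* (chr9:15910189-16501285, reverse strand), known from neurons, was far less abundant, with 16, 17 and 29 counts in L1L2-FF and 71, 113 and 165 counts in the AKO-labelled libraries. Its level rose from 0.657 ± 0.241 to 3.83 ± 1.82 CPM, 5.79-fold, with a log2 fold change of 2.53 ± 0.444 (SE) and an adjusted p of 0.00763 in edgeR. *Fat4* and its ligand *Dchs1*, the pair most like the fly's Fat and Dachsous, did not pass. *Fat4* had 48.7, 61.3 and 26.9 CPM in L1L2-FF and 49.2, 54.7 and 51.0 CPM in the AKO-labelled libraries, a log2 difference of 0.18 with an interval from -0.42 to 0.78. *Dchs1* had 39.4, 36.6 and 32.4 CPM against 50.6, 31.0 and 22.6 CPM, a difference of -0.06 with an interval from -0.66 to 0.55. The share of *Fat1* in the per-kilobase level of its class was 50.1% ± 3.78 in L1L2-FF and 64.1% ± 7.60 in the AKO-labelled libraries.

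Each of the 3 seven-pass cadherins was tested, and *Celsr2* had the largest fall of the 31 genes. The gene lies on the reverse strand of chromosome 3 (chr3:108390851-108415552), had 53.2, 49.9 and 23.5 CPM in L1L2-FF and 5.07, 5.61 and 4.78 CPM in the AKO-labelled libraries, and was highest in replicates 1 and 2 of L1L2-FF. From 42.2 ± 16.3 to 5.16 ± 0.422 CPM it fell 8.18-fold, with a log2 fold change of -3.03 ± 0.305 (SE) and an adjusted p of 0.000856 in edgeR. Its log2 fold change was between -3.32 and -2.83 in every alternative and in every fit that left out a library, with adjusted p-values of at most 0.00677. As a percentage of the summed adipocyte markers, *Celsr2* was 0.278% ± 0.116 in L1L2-FF and 0.0450% ± 0.00836 in the AKO-labelled libraries, without overlap. The largest part of that sum was *Fabp4*, at 8164 CPM in L1L2-FF and 6610 CPM in the AKO-labelled libraries. Within the list, log2 differences ran from -1.81 (*Slc2a4*) to 0.41 (*Lep*). Whether the fall of *Celsr2* goes with adipocyte content was not tested. *Celsr1* had 61, 164 and 76 counts against 44, 56 and 34, without overlap. Its log2 difference was -1.14 with an adjusted p of 0.0931 in edgeR, and DESeq2's Wald test put it past the threshold. As a percentage of the summed Schwann cell markers, *Celsr1* was 0.385% ± 0.0555 in L1L2-FF and 0.611% ± 0.236 in the AKO-labelled libraries, higher without overlap. *Celsr3* had 1.92 ± 0.208 and 1.59 ± 0.511 CPM with overlap. The share of *Celsr2* in this class per kilobase was 88.2% ± 4.97 in L1L2-FF and 63.3% ± 4.27 in the AKO-labelled libraries, and *Celsr1* and *Celsr3* took the rest.

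The start of *Celsr2* is shown because it holds an E-box core at 2 places. The window is RefSeq sequence of GRCm38.p6 at chr3:108415530-108415829 on the reverse strand, and CAGGTG, in capitals, lies at positions -172 and -30 from the start.

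Celsr2: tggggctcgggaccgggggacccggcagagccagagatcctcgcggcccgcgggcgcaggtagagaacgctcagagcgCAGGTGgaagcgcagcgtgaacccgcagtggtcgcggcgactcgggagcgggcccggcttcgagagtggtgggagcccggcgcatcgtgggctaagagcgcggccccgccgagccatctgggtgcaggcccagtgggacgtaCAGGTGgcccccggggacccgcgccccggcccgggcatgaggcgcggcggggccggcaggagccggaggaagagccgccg

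**Figure D4:**
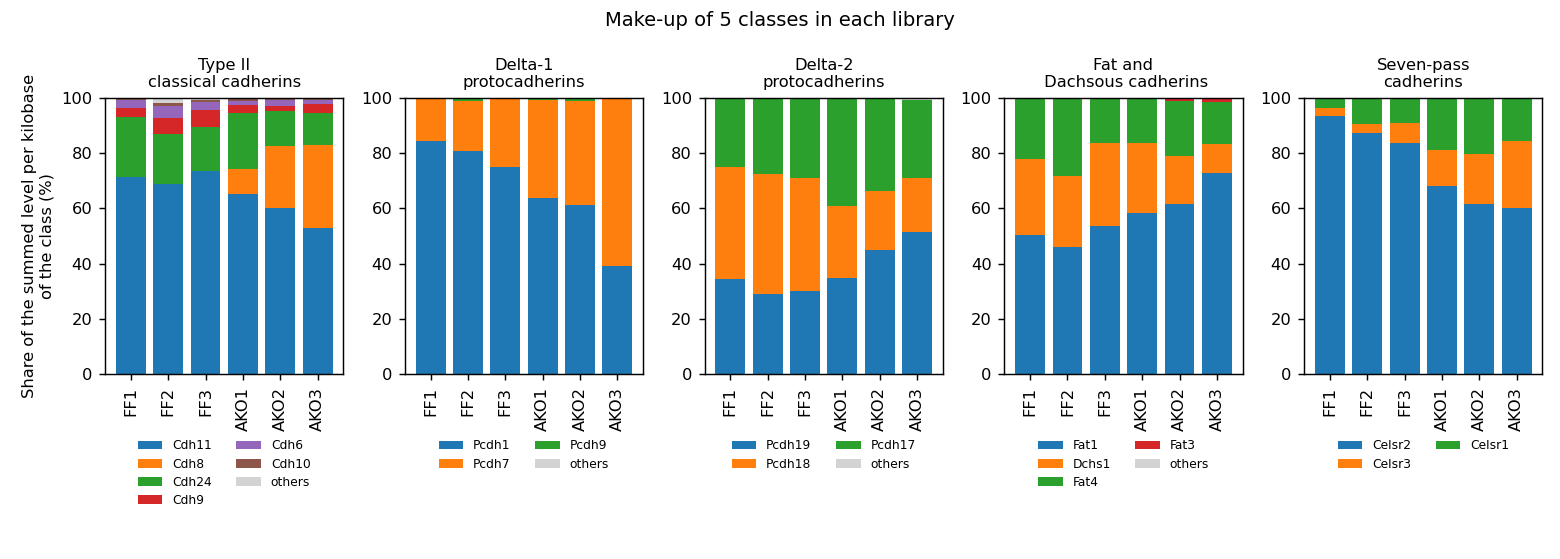
Percentage of the per-kilobase level of 5 classes taken by each gene in each library. The parts taken by *Cdh8*, *Pcdh7* and *Fat1* are larger, and those of *Pcdh18* and *Celsr2* smaller, in the AKO-labelled libraries.

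Promoter windows of 300 bases were found for 31 of the 45 genes, as 35 windows, and for all 7 called genes. The TEAD core was in 5 of the 35 windows (14.3%), beside 14.7% of 32851 windows of all genes. The E-box core was in 8 of 35 (22.9%), beside 20.2% of all windows, and the 2 motifs overlapped in none. Several of those 8 windows belong to *Cdh7*, which had 0 counts in every library. Counted by gene, the E-box core was in 6 of 31 (19.4%), beside 22.6% of all genes with a window. The TEAD core was in 5 of 31 (16.1%), beside 16.6%. Of the called genes, 1 had the TEAD core, *Fat1*, as GGAATG at position -102, in a window whose start lies 14761 bases downstream of the first base of the gene in GENCODE M21. E-box cores were in the windows of 3 of the 7 called genes, beside 22.6% of all genes with a window. They were *Celsr2*, *Pcdh7* and *Fat1*, of which *Pcdh7* and *Fat1* rose and *Celsr2* fell. Such matches of letters are a description, not binding sites.

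The catenins *Ctnna1* and *Ctnnd1* were the most abundant genes of the family, whereas *Ctnna2* and *Ctnnd2* were low. Per kilobase of exon, *Ctnna1* (alpha-E-catenin, which links the complex to actin) had a mean of 56.4 CPM per kilobase over all libraries, and *Ctnnd1* (p120, which holds cadherins at the membrane) had 27.9. *Pcdh1*, *Cdh13*, *Fat1* and *Pcdh12* followed with 11.0, 9.18, 8.72 and 6.58. *Ctnna1* had 353, 346 and 313 CPM in L1L2-FF and 378, 395 and 390 CPM in the AKO-labelled libraries, higher without overlap, but with a log2 difference of 0.20 (95% interval -0.07 to 0.48) and an adjusted p of 0.305 in edgeR. *Ctnnd1* had 195 ± 15.1 and 214 ± 6.17 CPM, a difference of 0.13 (-0.13 to 0.39), and a readthrough gene that is not in the table, *Gm28635*, shares 61.2% of its exonic bases, so its reads are uncertain. The neural *Ctnnd2* had 0.741 ± 0.437 and 0.754 ± 0.358 CPM, and the neural *Ctnna2* was too low to test.

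**Figure D5:**
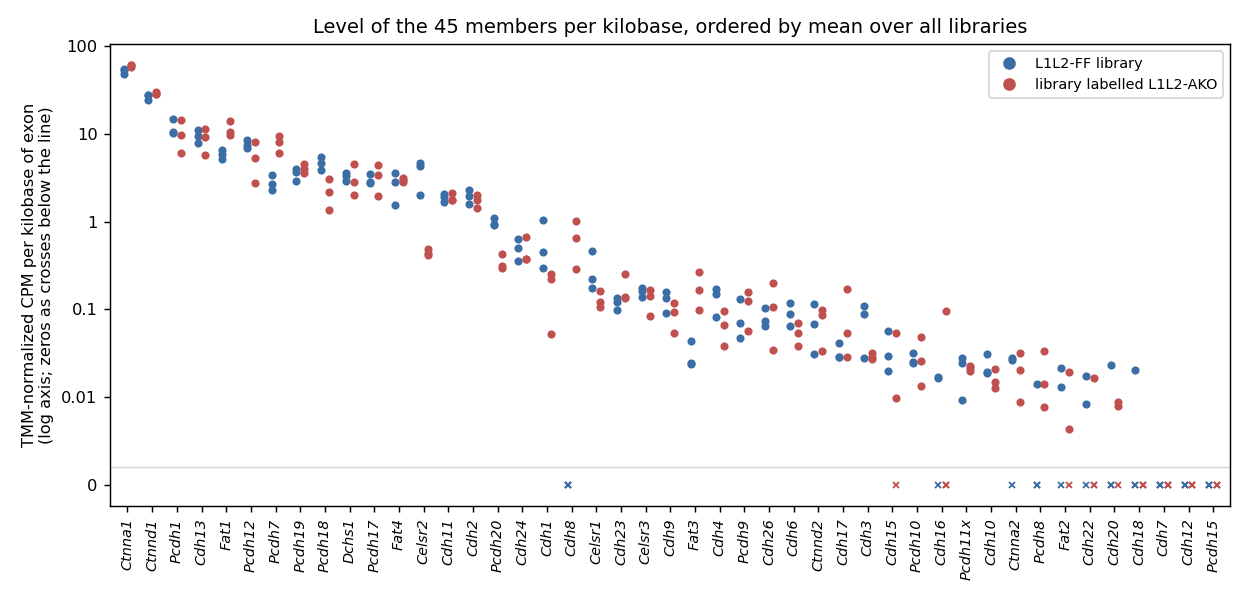
Level of all 45 genes in each library, as TMM-normalized CPM per kilobase of exon on a log axis, ordered by the mean over the libraries, with zeros as crosses. *Ctnna1* leads at 56.4 and *Cdh7*, *Cdh12* and *Pcdh15* lie at 0 in every library.

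Of the partners of this family, 20 of the 22 listed adherens junction and desmosome genes were tested, and 5 rose and 1 fell. Over all genes tested, 9.28% rose and 7.18% fell. The median log2 fold change was 0.33 in the list and -0.02 over all genes tested, and the lists were given no test of their own. *Arvcf*, a catenin of the p120 kind, rose from 8.02 ± 1.58 to 45.3 ± 9.80 CPM, a log2 fold change of 2.50 with an adjusted p of 0.000484 in edgeR. *Ajuba*, *Wtip* and *Lima1*, LIM-domain proteins of the junction, rose by 1.22, 1.16 and 1.13 on the log2 scale, and *Nectin3* rose by 0.51, a call lost whichever library was left out (adjusted p in edgeR up to 0.103). The cardiac alpha-T-catenin *Ctnna3*, which had 33 counts or fewer in every library, fell by 2.26, and its call held only without L1L2-FF replicate 3 among the 6 fits that left out a library (adjusted p in edgeR up to 0.0865). *Ctnnb1*, beta-catenin and the most abundant gene of the list, had 538 CPM in L1L2-FF and 508 CPM in the AKO-labelled libraries, a log2 difference of -0.08 that did not pass.

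The Fat-Dachsous and planar polarity partners numbered 17 tested of 18 listed, since *Pals1* is not analysed here. Of these, 4 rose and 1 fell, beside 9.28% and 7.18% of all genes tested, and the median log2 fold change was 0.02. *Fjx1*, the mammalian relative of the Golgi kinase that modifies Fat and Dachsous in flies, rose from 1.65 ± 0.0779 to 4.42 ± 0.167 CPM (log2 fold change 1.42, adjusted p 0.00354 in edgeR). The scaffold *Mpdz*, the most abundant of the list over all libraries though not in L1L2-FF, rose from 127 ± 32.4 to 335 ± 66.3 CPM, the receptor *Fzd7* by 1.08 on the log2 scale and *Dvl3* by 0.62, while *Dvl1* fell by 0.42. The call of *Dvl1* was lost without L1L2-FF replicate 1 or any AKO-labelled library (adjusted p in edgeR up to 0.0999), and that of *Fzd7* without L1L2-FF replicate 1, L1L2-AKO replicate 2 or L1L2-AKO replicate 3 (up to 0.0705). Of 8 proteases and gamma-secretase subunits that cut cadherins, 1 rose, beside 9.28% of all genes tested. It was *Ncstn*, the most abundant over all libraries, which rose from 103 ± 3.16 to 160 ± 20.5 CPM (log2 fold change 0.63). Its adjusted p in edgeR was 0.0586 without L1L2-FF replicate 1.

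The 14 genes left out of the test were *Cdh3*, *Cdh7*, *Cdh10*, *Cdh12*, *Cdh15*, *Cdh16*, *Cdh17*, *Cdh18*, *Cdh20*, *Cdh22*, *Pcdh8*, *Pcdh15*, *Fat2* and *Ctnna2*. No library had more than 22 counts of any of them. *Cdh7*, *Cdh12* and *Pcdh15* had 0 counts in all 6 libraries, and with *Cdh18*, *Cdh20* and *Cdh22* they made 6 genes with at most 3 counts in each library, for which a difference was not detectable at this depth. *Cdh4*, *Cdh23*, *Cdh26*, *Pcdh9* and *Pcdh10* were tested and did not pass. Among these, *Cdh23*, the cadherin of hair-cell tip links, was higher without overlap, with 2.00 ± 0.297 and 2.96 ± 1.12 CPM and an adjusted p of 0.277 in edgeR.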

How the data were processed

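The authors collected floated adipocytes from inguinal scWAT by collagenase digestion, sequenced oligo(dT)-selected RNA as paired ends on a BGISEQ-500, aligned the reads to mm10 with HISAT2 2.1.0 and processed them with SAMtools and StringTie 1.3.5, versions as in the submitters' processing notes. The table the authors deposited holds raw read counts, 1 row per symbol and not normalized. The annotation, the counting program and its strand setting are not given in the sources used here, so reads of overlapping or antisense genes cannot be separated.

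Libraries were grouped by their labels, 3 per label. Nothing says whether pools of a label shared litters or handling, so p-values measure the spread between these pools. In R 4.3.3, edgeR 4.0.16 was run with filterByExpr (minimum count 10, minimum total 15), which kept 15674 genes and left out 21710, TMM factors and a two-sided quasi-likelihood test, adjusted by Benjamini-Hochberg and read at 0.05. Intervals are at 95%. Per-kilobase levels used exon lengths of GENCODE M21 (mm10), in which all 45 genes were found, and promoter windows came from RefSeq (GRCm38.p6). Plots used Python 3.11.15, pandas 2.3.3 and matplotlib 3.10.9. A label with at most 3 counts in every library was taken as at the floor, which covers counting error only. Since 3 libraries face 3, an exact permutation test cannot go below 0.1.

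Alternatives were other scalings, no filter, at least 10 counts in every library, DESeq2 1.42.0, limma 3.58.1 (voom), the replicate number as a block, and each library left out.

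The members and gene lists were chosen with earlier results of these data known. Genes described one by one are those past the threshold, the 10 with the highest per-kilobase level, those at the floor under one label, and the best known of each class. Other marker lists covered progenitors and fibroblasts (0 higher, 2 lower of 9), skeletal muscle (0 of 5 tested changed), mesothelium (1 higher of 2 tested), lymphatic endothelium (0 of 4 changed) and epithelium (1 higher and 1 lower of 4 tested).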

Additional observations from a re-analysis of the deposited data

How the results depend on the processing

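The directions of the 7 called genes were the same under every alternative that could be run, and *Cdh8* could not be fitted with at least 10 counts in every library. Of the 31 genes, 7 passed under DESeq2 size factors, library size alone, upper-quartile scaling, no filter and limma-voom, 6 with at least 10 counts in every library, and 6 to 7 when a library was left out. DESeq2's Wald test called 9, of which 5 were lower, since *Cdh1* and *Celsr1* were added. Partner genes called lower numbered 2, but 1 with at least 10 counts in every library, 4 with DESeq2's Wald test, and 0 to 2 when a library was left out. Over all genes, the calls numbered 2580, and 1281 to 2845 when a library was left out (777 to 1552 higher, 467 to 1293 lower), lowest without L1L2-AKO replicate 2 (1281), L1L2-FF replicate 1 (1290) and L1L2-AKO replicate 3 (1374). DESeq2's Wald test called 3500. The cause was not tested. Genes that did not pass and changed sign were *Cdh11* (-0.00078 with library size alone, -0.020 with upper quartile, -0.084 to 0.085 when a library was left out), *Cdh13* (-0.33 to 0.14), *Dchs1* (-0.43 to 0.19), *Fat4* (-0.092 to 0.45), *Pcdh1* (-0.58 to 0.047), *Ctnnb1* (-0.18 to 0.010) and *Zeb2* (-0.046 to 0.17), the last 6 when a library was left out. Without length correction the share of *Pcdh18* in its class was 24.8% in L1L2-FF and 11.8% in the AKO-labelled libraries. With a floor of 10 counts in place of 3, 11 genes instead of 6 lay at the floor under both labels.

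Same-numbered libraries deviated from their group means with correlations of 0.188, 0.255 and -0.0544. Libraries of unlike number gave correlations from -0.324 to 0.211. With 3 libraries per label, these values cannot show whether same-numbered libraries shared litters or handling. With replicate number as a block, 8 of the 31 genes passed, the 7 and *Cdh1*. Counts of at most 22 per library limit what can be said of 14 genes.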
